A study of Arabidopsis thaliana with 9 samples.

Results

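Pseudogene loci with a signal above background were examined in seedlings of Arabidopsis thaliana on Affymetrix ATH1 arrays. The members are loci that RefSeq's table of genes for TAIR10.1 types as pseudogene or transcribed pseudogene, measured by a probe set that names 1 locus, with a mean signal above 5.8 (log2) over the 9 arrays. Of 998 such loci measured, 176 lay above 5.8, and 172 remained after 8 loci were left out by name. The 172 comprise 153 typed as pseudogene and 19 typed as transcribed pseudogene, out of 13350 loci of every type measured here. Their signal therefore chose them, and it is given below as a description.

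The samples were 3 arrays of a jmj24 mutant, 3 of a 35S::JMJ24 line and 3 of wild type, which the labels give as Col-0. The mutant is the stock N521260 in the gene At1g09060, obtained from a European stock centre. The 35S::JMJ24 line was made by Agrobacterium-mediated transformation and carries JMJ24 behind the 35S promoter, a viral promoter active in most plant tissues. RNA came from whole seedlings aged 9 days by the extraction protocol, although 10 to 14 days stand under growth conditions in the labels. A single mutant stock and 1 transgenic line were named. By the annotation used here, which leaves 8730 of 22746 tested probe sets unnamed, none was matched to JMJ24, so its own level was not checked. In whole seedlings, fewer cells that carry a transcript and less transcript per cell cannot be told apart.

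A pseudogene is a copy of a gene, or a remnant of one, that has lost the ability to make the original protein, and many plant loci annotated in this way are remains of transposons. Transposons and their remains are usually kept silent in plants by DNA methylation and by methylation of histone H3 on lysine 9, so a steady transcript from such a locus is less usual than from a coding gene. JMJ24 belongs to the jumonji family, many of whose members remove methyl groups from histones, and the study placed it in the control of transposon silencing. The annotation used here gives no description for the members, so which of the 172 derive from transposons and which from other genes is not known from it. No role is therefore given for a single locus. No member has a gene symbol, and no member matched a word for a transposon, a kinase, an F-box protein, a cytochrome P450 or a ribosomal protein. Only symbols and synonyms could be searched. Of these words only cytochrome P450 matched any of the 998 measured pseudogene loci, in 2 cases, so the search could not show what the members are.

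The data behind these values are 1 value per probe set and array. Values spanned 2.634 to 14.7 (log2) over all 22810 probe sets, controls included, and the medians of the arrays lay between 7.826 and 7.873. Correlations between pairs of arrays, across probe sets, were 0.992 to 0.998. The level of 5.8 is that of the brightest of 27 Bacillus control probe sets, and it serves as a mark of background. Signals of different probe sets depend on their probes as well as on the amount of transcript, so the order of loci by signal is not an order of transcript amount.

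Most pseudogene loci gave no signal above that mark. The share above 5.8 was 17.6% (176 of 998) among pseudogene loci, against 73.5% (9082 of 12352) among the other loci. The median mean signal was 4.17 over all measured pseudogene loci, against 7.75 over the other loci. The 822 pseudogene loci at or below the mark had a median of 3.91. Among the 8 loci left out by name, AT4G16870 (9.00), AT1G43590 (8.42), AT2G11140 (7.36) and AT3G21020 (6.22) lay above the mark.

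Within the 172 members the mean signal had a median of 6.81, with a lowest value of 5.83 and a highest value of 12.5. Between 5.8 and 6 lay 20 members, between 6 and 7 lay 76, and between 7 and 8 lay 38. Signals between 8 and 10 were found for 23 members, and 15 lay above 10. All 9 arrays lay above 5.8 for 138 members, while 34 members were at or below it on at least 1 array. No member was at or below 5.8 on all 3 arrays of any genotype. Just inside the limit lay AT4G05640 (5.83), AT4G13120 (5.84), AT2G14350 (5.84), AT2G24920 (5.84) and AT1G37160 (5.84), and just outside it lay AT2G10070 (5.79), AT1G31100 (5.79), AT2G10780 (5.77), AT1G27285 (5.74) and AT4G07920 (5.73).

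**Figure D1:**
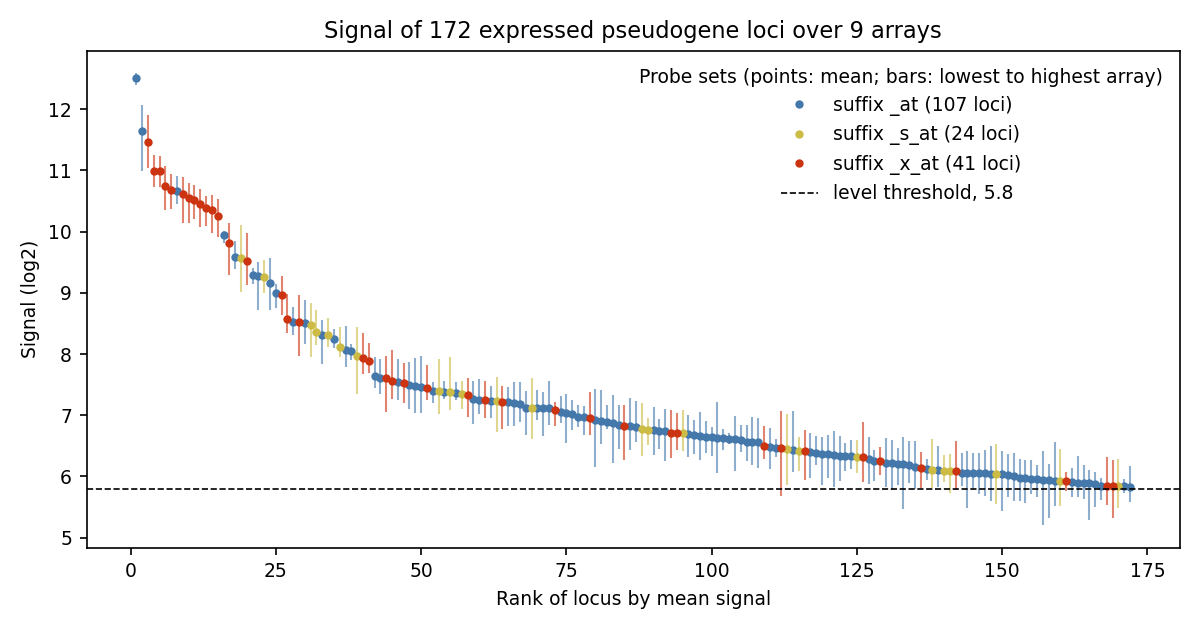
Signal of each of the 172 members (log2), ranked by the mean over 9 arrays, with bars from the lowest to the highest array and colours for the probe set suffix. The plot steps down from 12.5 at the first locus to the mark of 5.8 (dashed line), and 12 of the 15 loci above 10 have the suffix _x_at.

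The ranked plot of signals colours the members by the suffix of their probe sets. The manufacturer's suffixes state how specific a probe set is: _at for 1 transcript, _s_at for probes shared by transcripts of related genes, and _x_at for sets in which some probes also match other sequences. Members had _at sets in 107 cases, _s_at sets in 24 and _x_at sets in 41. Among pseudogene loci the share above 5.8 was 13.8% for _at sets (111 of 807), 21.2% for _s_at sets (24 of 113) and 52.6% for _x_at sets (41 of 78). Among the other loci the order was the opposite, with 73.7% for _at sets, 56.9% for _s_at sets (33 of 58) and 35.5% for _x_at sets (11 of 31). The median member signal was 6.65 for _at sets, 6.94 for _s_at sets and 7.57 for _x_at sets. A signal from an _x_at or _s_at set may come from several copies of a sequence, and how much of it comes from the named locus was not tested.

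By annotated type, 17.0% of loci typed as pseudogene (157 of 923) and 25.3% of those typed as transcribed pseudogene (19 of 75) lay above 5.8. By chromosome, the share of measured pseudogene loci above 5.8 was 19.9% on chromosome 1, 15.9% on chromosome 2, 17.3% on chromosome 3, 14.4% on chromosome 4 and 23.7% on chromosome 5. These shares are descriptions, since the level chose the members.

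The brightest member was AT1G35612, with an _at probe set. Its signals were 12.56, 12.43 and 12.51 in the jmj24 mutant, 12.58, 12.59 and 12.51 in 35S::JMJ24, and 12.39, 12.46 and 12.52 in wild type. The values of the 3 genotypes overlapped and spanned only 0.197 over the 9 arrays. The nearest coding genes on each side, AT1G35610 (3.34) and AT1G35614 (4.06), lay below the mark of background.

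AT5G35880, also with an _at set, had 11.71, 12.07 and 11.47 in the jmj24 mutant, 11.36, 11.67 and 11.81 in 35S::JMJ24, and 11.00, 11.79 and 11.98 in wild type. Its lowest and highest values came from wild type 1 and mutant 2, and all 3 genotypes overlapped. The third brightest, AT3G29210, has an _x_at set, with 11.44, 11.91 and 11.38 in the jmj24 mutant, 11.05, 11.38 and 11.44 in 35S::JMJ24, and 11.32, 11.62 and 11.62 in wild type. Mutant 2 was again the highest array. Next came AT4G04010 and AT2G04980 (both 11.0), AT2G06430 (10.75), AT1G32840 (10.68), AT3G47260 (10.61), AT2G14130 (10.55), AT3G44500 (10.52) and AT5G34900 (10.45), all with _x_at sets.

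The brightest locus typed as transcribed pseudogene was AT1G80800, with an _at set. It had 10.70, 10.54 and 10.45 in the jmj24 mutant, 10.68, 10.66 and 10.47 in 35S::JMJ24, and 10.78, 10.91 and 10.74 in wild type. Every array of the mutant and of 35S::JMJ24 was lower than every wild-type array. The differences were −0.25 for the mutant and −0.21 for 35S::JMJ24 (log2, SE 0.090 each), and neither passed the limma test (adjusted p = 0.311 and 0.659). Both use the same 3 wild-type arrays. AT5G40920 (9.27) and AT5G04880 (9.00) were the next brightest of that type.

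Several bright members stand beside another member on the chromosome. There were 8 such adjacent pairs among the 172, and 15 members (8.72%) had a member next to them in the gene table, against 35 of the 822 pseudogene loci at or below 5.8 (4.26%). Neighbours were taken among loci typed as pseudogene, transcribed pseudogene or protein coding, and loci of other types between them were passed over. In 6 of the 8 pairs both loci have _x_at sets, and a bright locus stands beside one of lower signal. AT2G04980 (11.0) stands beside AT2G04970 (6.46), AT1G32840 (10.7) beside AT1G32830 (7.88), and AT2G14130 (10.5) beside AT2G14140 (7.44). AT3G47260 (10.6) stands beside AT3G47270 (7.33), AT5G34900 (10.5) beside AT5G34895 (6.50), and AT3G30440 (10.3) beside AT3G30450 (6.71). Of the 12 members with _x_at sets above 10, 6 belong to such a pair. The other pairs join AT2G05880 (6.01) to AT2G05870 (7.52) and to AT2G05890 (6.72).

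**Figure D2:**
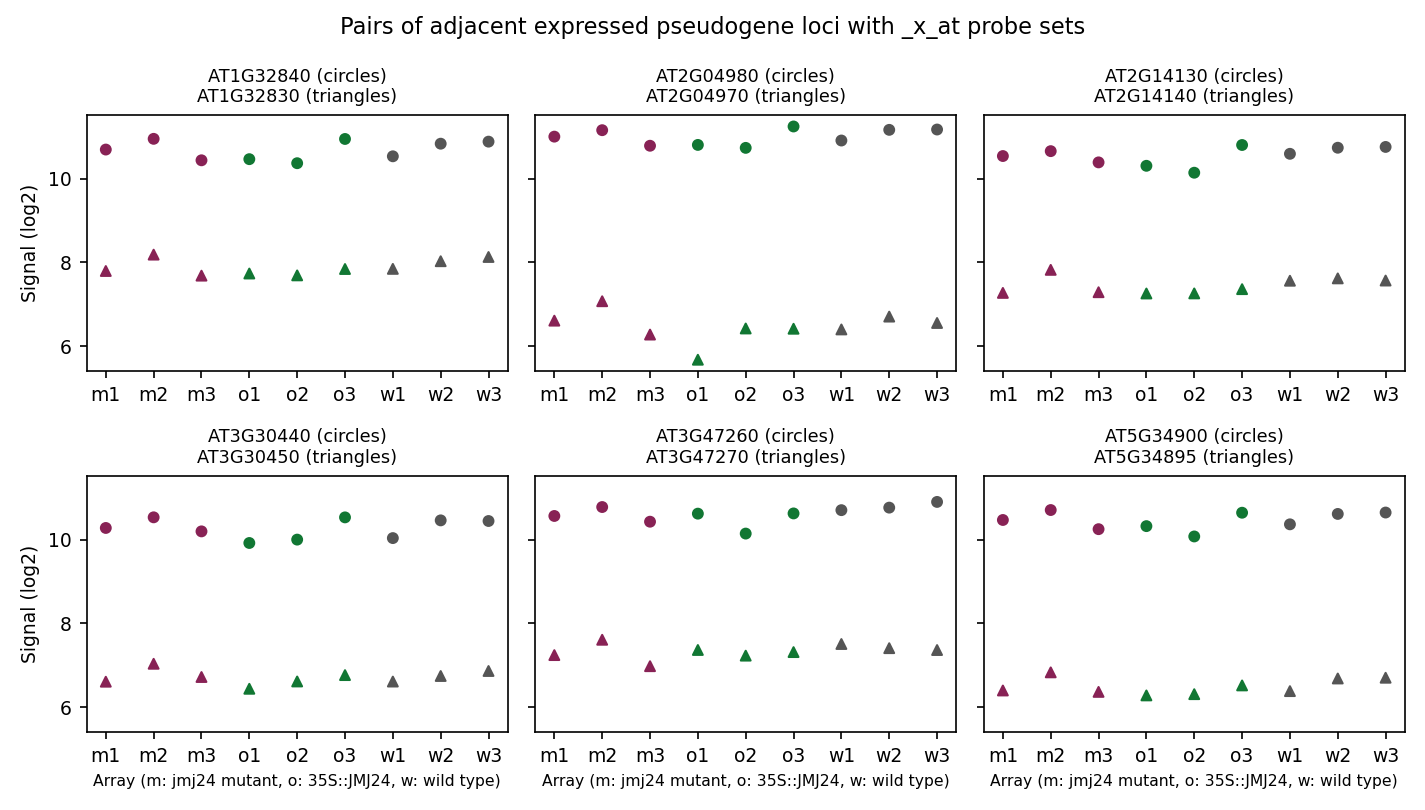
Signal (log2) on each of the 9 arrays for the 6 pairs of adjacent members with _x_at probe sets, with circles for the brighter locus and triangles for the dimmer one, coloured by genotype (m, jmj24 mutant; o, 35S::JMJ24; w, wild type). In every pair all circles lie above all triangles, as for AT2G04980 (mean 11.0) and AT2G04970 (mean 6.46).

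The plot of adjacent pairs shows the gap between the loci of a pair on each array. Whether the loci of a pair share sequence could not be read from the tables used here. Members had fewer pseudogene neighbours than the dim loci did. Of the 344 loci next to members 168 were pseudogene loci (48.8%), against 1003 of the 1644 next to the 822 dim loci (61.0%). A pseudogene on both sides was found for 59 members (34.3%), against 365 dim loci (44.4%). Neither side held one for 63 members (36.6%), against 184 dim loci (22.4%). Of the coding genes next to members 74 were measured, with a median signal of 6.63 and 49 above 5.8 (66.2%), against 250 next to dim loci, with a median of 5.93 and 128 above 5.8 (51.2%). These neighbour counts describe loci that the signal chose.

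The members' signals varied more between arrays than those of other loci, but the sets were not matched for signal or probe set suffix. The median signal was 6.81 over the members, against 8.66 over the other loci above 5.8 with _at sets. Sets with the suffix _x_at made up 41 of the 172 members, against 11 of the 9082 other loci above 5.8. The range over the 9 arrays had a median of 0.679 over the members, against 0.365 over other loci above 5.8. The standard deviation between arrays of 1 genotype had a median of 0.212 over the members, against 0.126 over the dim pseudogene loci and 0.109 over other loci above 5.8. The narrowest range was 0.186 and 12 members had a range above 1. The widest ranges were those of AT2G04970 (1.40), AT1G80020 (1.28), AT1G34330 (1.22), AT2G36040 (1.17) and AT2G27870 (1.17). The standard error of a genotype difference had a median of 0.148 over the members, against 0.0923 over all probe sets tested.

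A part of this variation was shared among the members on an array. On jmj24 mutant 2, 145 of 172 members lay above their own 9-array mean, with a median deviation of 0.214 (log2), and the median deviation was −0.0630 on mutant 1 and −0.0137 on mutant 3. In 35S::JMJ24 the median deviations were −0.120, 0.0121 and 0.00267. In wild type they were −0.197, −0.00121 and 0.149, with 25 of 172 members above their mean on wild type 1 and 147 of 172 on wild type 3. Other loci above 5.8 had medians between −0.0107 and 0.0152 on the same arrays. The dim pseudogene loci were also low on wild type 1, with a median of −0.0883 and 133 of 822 above their mean. On mutant 2 their median was 0.0438 (546 of 822 above) and on wild type 3 it was 0.0198 (489 of 822). Their highest median was 0.0789, on 35S::JMJ24 2. Mutant 2 was the highest array for 65 members and wild type 1 the lowest for 72. Over all members the array medians of 1 genotype spanned more than the median difference over all members in each comparison below.

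**Figure D3:**
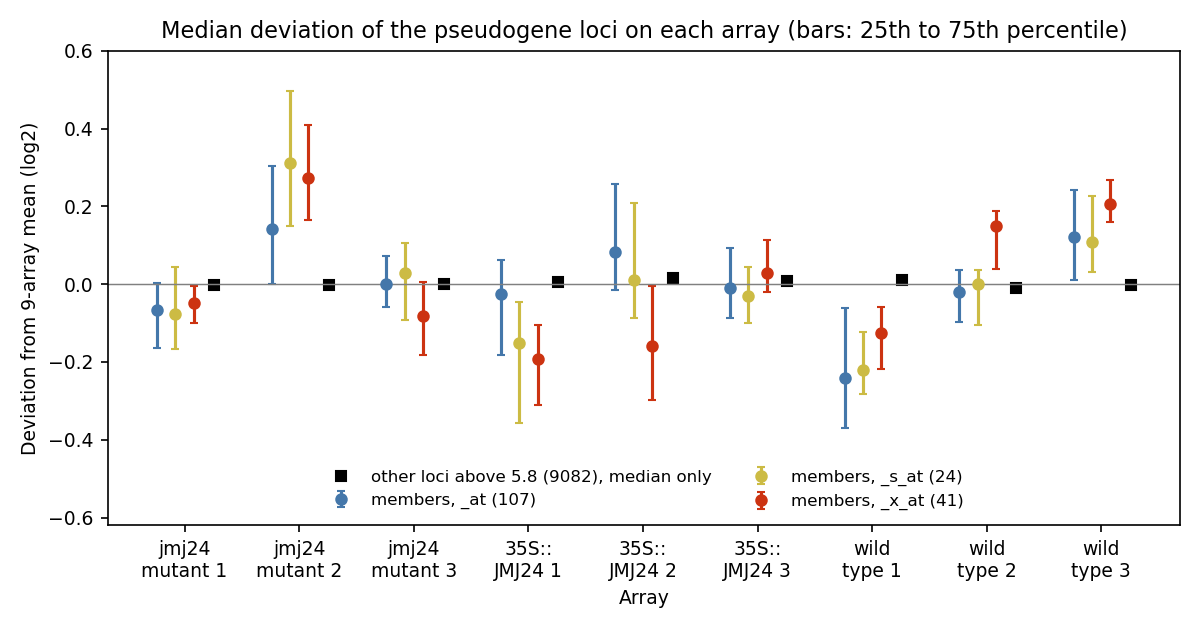
Median deviation of the members from their own 9-array mean (log2) on each array, by probe set suffix, with bars from the 25th to the 75th percentile, and the median of 9082 other loci above 5.8 as squares. The members sit high on jmj24 mutant 2 and wild type 3 and low on wild type 1, while the squares stay within 0.0152 of 0.

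In the plot of array deviations, the 41 members with _x_at sets deviated together. All 41 lay above their own mean on jmj24 mutant 2 and on wild type 3, with median deviations of 0.273 and 0.205. On 35S::JMJ24 1 and 35S::JMJ24 2 their medians were −0.191 and −0.159, and on 35S::JMJ24 3 the median was 0.0279. Whether these sets share target sequences was not tested.

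The arrays numbered 1 were low for the members in every genotype. The array numbered 1 minus the mean of the arrays numbered 2 and 3 had a median of −0.159 in the mutant (below 0 for 143 members), −0.129 in 35S::JMJ24 (130 members) and −0.287 in wild type (151 members). Averaged over the genotypes the median was −0.213, and 148 of 172 members (86%) were below 0, against 45.5% of other loci above 5.8 and 76.3% of the dim pseudogene loci. The labels do not say what the number stands for.

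The comparison of the jmj24 mutant with wild type asks whether transcripts of these loci depend on an intact JMJ24 gene. None of the 172 members passed the limma test across all probe sets (adjusted p under 0.05), while 1.14% of all probe sets did. This count is fixed by the choice of members, because the 4 pseudogene loci that pass in any comparison (AT1G43590, AT2G11140, AT3G21020 and AT1G27285) were left out by name. Unadjusted p was under 0.05 for 10 members (5.81%), against 11.7% of all probe sets. The 3 mutant values did not overlap the 3 wild-type values for 12 members (6.98%), against 16% of all probe sets. Of these, 6 were higher in the mutant (3.49%, background 7.49%) and 6 lower (3.49%, background 8.47%).

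Differences of the members between mutant and wild type ranged from −0.62 to 0.43 (log2), with a median of 0.0752 and 118 of 172 above 0 (68.6%), beside a median of 0.00609 and 52.1% above 0 over all probe sets. The dim pseudogene loci leaned the same way, with a median of 0.0438 and 575 of 822 above 0 (70.0%). This median followed single arrays. It was −0.0156 without mutant 2 and −0.0313 without wild type 1.

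The lowest adjusted p of any member belonged to AT1G64250. It had 6.18, 6.16 and 5.98 in the jmj24 mutant, 6.34, 6.34 and 6.51 in 35S::JMJ24, and 6.65, 6.68 and 6.41 in wild type. The 3 mutant values lay below all wild-type and all 35S::JMJ24 values, while 35S::JMJ24 and wild type overlapped. The difference between mutant and wild type was −0.47 (SE 0.094, limma adjusted p = 0.0527), and over 12 other settings of the fit the adjusted p was 0.0115 to 0.199. Settings in which it passed included the fit without wild type 3 (−0.56, adjusted p = 0.0359) and the fit with array weights (−0.54, adjusted p = 0.0115). Wild type 3 is the wild-type array with the lowest value. The weights put most on wild type 2, the highest, at 3.68 against 0.514 for wild type 1 and 0.832 for wild type 3. The mutant minus 35S::JMJ24 was −0.29 (adjusted p = 0.555).

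The largest negative differences of the mutant from wild type were in AT1G80020 and AT2G36040. AT1G80020 had 6.15, 6.61 and 6.95 in the jmj24 mutant, 6.85, 7.42 and 6.71 in 35S::JMJ24, and 7.34, 6.94 and 7.29 in wild type, a mutant difference of −0.62 (SE 0.231, adjusted p = 0.327). Mutant 3 reached the wild-type range, so the groups overlapped. AT2G36040 had 5.47, 6.08 and 5.95 in the jmj24 mutant, 6.19, 6.25 and 6.64 in 35S::JMJ24, and 6.48, 6.57 and 6.25 in wild type. The mutant lay below both other genotypes on every array, by 0.60 against wild type (SE 0.173, adjusted p = 0.189) and by 0.53 against 35S::JMJ24, and mutant 1 lay under the mark of background. AT1G34100 and AT2G46730 differed by −0.28 and −0.26.

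On the higher side, AT2G24160 had 6.64, 7.33 and 7.14 in the jmj24 mutant, 6.67, 6.94 and 7.24 in 35S::JMJ24, and 6.23, 6.31 and 7.30 in wild type. Its mutant difference of 0.43 (SE 0.289) rests on 2 low wild-type arrays, and wild type 3 lay within the mutant range. AT2G03540 had 7.38, 7.55 and 7.04 in the jmj24 mutant, 7.56, 7.48 and 7.42 in 35S::JMJ24, and 6.85, 7.03 and 7.0 in wild type. Both lines were above wild type on every array, by 0.36 in the mutant (SE 0.119) and by 0.53 in 35S::JMJ24 (adjusted p = 0.388), and both differences use the same wild-type arrays. AT2G10900 (0.35), AT3G32917 (0.34) and AT3G42680 (0.34) had the next largest differences.

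Setting 35S::JMJ24 against wild type asks what a transgene meant to raise JMJ24 does to these loci. Again 0 members passed (0.0176% of all probe sets did), and the smallest adjusted p was 0.383. Unadjusted p was under 0.05 for 16 members (9.3%), against 7.43% of all probe sets. The values did not overlap for 14 members (8.14%, background 11.7%). Of these, 5 were higher in 35S::JMJ24 (2.91%, background 7.25%) and 9 lower (5.23%, background 4.48%). All those higher had _at sets. Of those lower, AT1G80800, AT4G01490 and AT5G35310 had _at sets and the rest had _x_at sets. Differences ranged from −0.49 to 0.70, with a median of −0.00715 and 81 of 172 above 0 (47.1%), beside a median of 0.0202 and 57.1% above 0 over all probe sets. The dim pseudogene loci had a median of 0.0594 and 604 of 822 above 0 (73.5%). The median turned above 0 without 35S::JMJ24 1 (0.0418), wild type 2 (0.00112) or wild type 3 (0.0621).

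AT1G34330, a transcribed pseudogene, had the largest difference. It had 5.85, 5.8 and 6.14 in the jmj24 mutant, 6.11, 6.38 and 6.42 in 35S::JMJ24, and 5.20, 5.94 and 5.66 in wild type. Every 35S::JMJ24 array was above every wild-type array, by 0.70 on average (SE 0.177, adjusted p = 0.471), and 2 wild-type arrays were under the mark of background. AT4G10690 (0.45) and AT1G64560 (0.39) followed AT2G03540 on the higher side.

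AT4G01490 had the largest negative difference. It had 6.40, 6.65 and 6.44 in the jmj24 mutant, 5.86, 6.08 and 6.23 in 35S::JMJ24, and 6.50, 6.63 and 6.49 in wild type. The 35S::JMJ24 arrays lay below all arrays of both other genotypes, by 0.49 against wild type (SE 0.105, adjusted p = 0.383), while mutant and wild type differed by −0.05. AT5G35310 was also lowest in 35S::JMJ24, with 6.24, 6.42 and 6.01 in the jmj24 mutant, 5.43, 5.92 and 5.86 in 35S::JMJ24, and 5.98, 6.17 and 6.28 in wild type (35S::JMJ24 minus wild type −0.41, SE 0.148). AT3G32900 (−0.40), AT2G05890 (−0.38) and AT2G04970 (−0.38) came next.

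The comparison of the jmj24 mutant with 35S::JMJ24 sets absent or reduced JMJ24 against raised JMJ24, as far as the labels give these lines. None of the members passed (0.246% of all probe sets did), and the smallest adjusted p was 0.259, for AT4G01490. Unadjusted p was under 0.05 for 12 members (6.98%), against 6.33% of all probe sets. The values did not overlap for 17 members (9.88%, background 10.2%), with 11 higher in the mutant (6.4%, background 3.02%) and 6 lower (3.49%, background 7.14%). Differences ranged from −0.53 to 0.49, with a median of 0.0820 and 113 of 172 above 0 (65.7%), beside a median of −0.0167 and 43.0% above 0 over all probe sets. The dim pseudogene loci had a median of −0.0173 and 353 of 822 above 0 (42.9%). Without mutant 2 the median was −0.0122.

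AT1G52090 had 9.78, 10.11 and 9.55 in the jmj24 mutant, against 9.01, 9.39 and 9.59 in 35S::JMJ24 (0.49, SE 0.188). Mutant 3 fell within the 35S::JMJ24 range. AT2G04970 had 6.61, 7.07 and 6.28 in the jmj24 mutant, against 5.68, 6.42 and 6.42 in 35S::JMJ24 (0.48), and the groups overlapped. AT5G38870 had 8.73, 9.12 and 8.99 in the jmj24 mutant, against 9.29, 9.57 and 9.20 in 35S::JMJ24, with every mutant value the lower (−0.41). AT3G17110 had 6.48, 6.74 and 6.51 in the jmj24 mutant, 6.88, 6.88 and 6.93 in 35S::JMJ24, and 6.37, 6.65 and 6.70 in wild type, so that 35S::JMJ24 overlapped neither of the others.

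**Figure D4:**
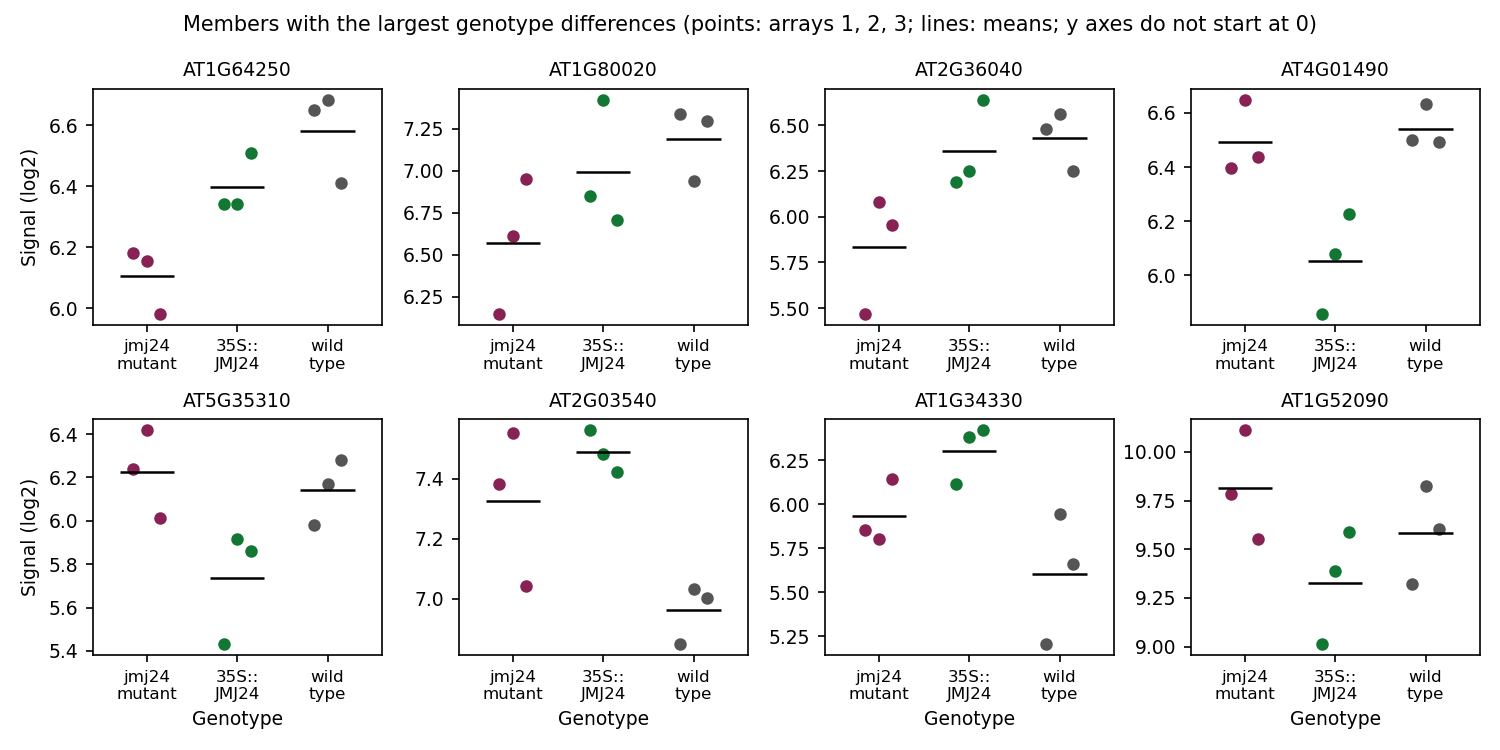
Signal (log2) on each array for 8 members with large genotype differences, with points for arrays 1, 2 and 3, lines for means and y axes that do not start at 0. AT1G64250 and AT2G36040 sit lowest in the jmj24 mutant, AT4G01490 and AT5G35310 sit lowest in 35S::JMJ24, and AT1G34330 sits highest in 35S::JMJ24.

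The plot of single members shows differences of less than 1 log2 unit in each case. Of the 172 members, 2 differed from wild type by more than 0.5 in the mutant (1.16%, against 2.18% of all probe sets) and 2 in 35S::JMJ24 (1.16%, against 0.673% of all probe sets). By F test over the 3 genotypes 0 members passed (0.708% of all probe sets did), and 16 had an unadjusted p under 0.05 (9.3%, background 9.46%).

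Members grouped by probe set suffix differed in their medians. Members with _x_at sets had a median of −0.194 in 35S::JMJ24 minus wild type, with 6 of 41 above 0, of −0.0532 in mutant minus wild type, with 16 of 41 above 0, and of 0.141 in mutant minus 35S::JMJ24, with 38 of 41 above 0. The lowest adjusted p among them was 0.595 for 35S::JMJ24 against wild type. With each array left out in turn, the median of 35S::JMJ24 minus wild type stayed between −0.295 and −0.137. That of mutant minus wild type turned above 0 without mutant 1 (0.00770), mutant 3 (0.0205) or wild type 3 (0.0389). The median of mutant minus 35S::JMJ24 was 0.0126 without mutant 2, with 23 of 41 above 0. Members with _at sets had medians of 0.0822 for mutant minus wild type, 0.0539 for 35S::JMJ24 minus wild type and 0.0126 for mutant minus 35S::JMJ24. Members with _s_at sets had 0.143, −0.0122 and 0.144 for the same comparisons.

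**Figure D5:**
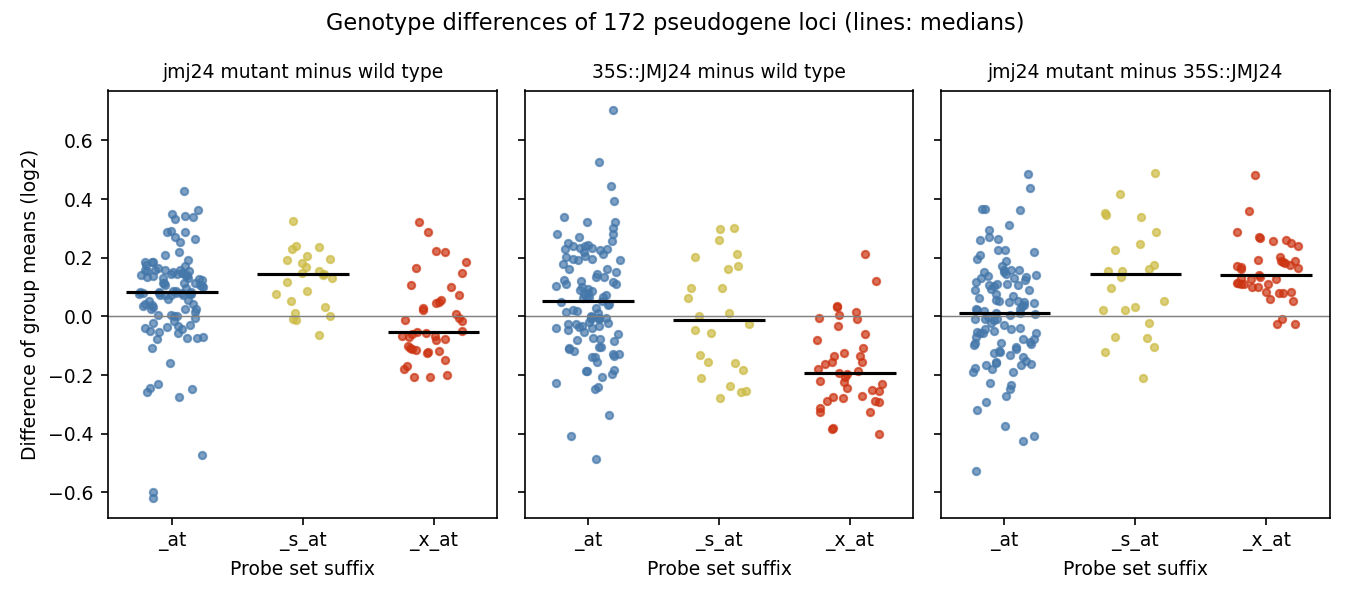
Difference of group means (log2) of each of the 172 members in the 3 comparisons, by probe set suffix, with lines at the medians. In 35S::JMJ24 minus wild type the _x_at members lie mostly below 0 (median −0.194), and in jmj24 mutant minus 35S::JMJ24 mostly above 0 (median 0.141).

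The plot of differences shows the _x_at members shifted together, and the 35S::JMJ24 and wild-type arrays still overlapped in their median deviations, which were −0.191, −0.159 and 0.0279 in 35S::JMJ24 and −0.125, 0.150 and 0.205 in wild type. The 19 transcribed pseudogenes had medians of 0.0406 for mutant minus wild type, 0.179 for 35S::JMJ24 minus wild type and −0.110 for mutant minus 35S::JMJ24, the last with 4 of 19 above 0. For these 19 loci the wild-type arrays 1, 2 and 3 had median deviations of −0.332, −0.0347 and 0.109. Wild type 1 was the lowest array for 11 of the 19. Median deviations on the 35S::JMJ24 arrays were 0.0803, 0.174 and −0.0335. Those on the mutant arrays were −0.0693, −0.0403 and 0.0149, so all 3 genotypes overlapped. These groupings were made with earlier results of these data known, and the comparisons share their arrays.

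Of 36 listed genes that act in transcriptional silencing or its removal, the annotation pairs 1 with a probe set. This was DME, an enzyme that takes methylated cytosine out of DNA, with a signal of 8.21 and differences from wild type of −0.11 in the mutant and −0.08 in 35S::JMJ24. Of 14 listed genes of RNA decay 2 were measured, among them UPF3, a factor of nonsense-mediated decay (0.05 in the mutant and 0.16 in 35S::JMJ24). No gene of either list passed. Of the tissue markers, 1 of 6 for leaf was measured (RCA, the Rubisco activase, at 13.5) and 3 of 5 for root, at 6.12 to 7.86. The root markers had a median difference from wild type of 0.304 in the mutant and 0.398 in 35S::JMJ24. No root marker passed. Their part in the members' differences was not tested. No listed dry seed marker (0 of 5) and no flower or pollen marker (0 of 5) was measured under a name.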

How the data were processed

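The deposited table gives 1 value per probe set and array, for which the submitters' processing notes name affy. Neither the version of affy nor the background correction or normalization is stated there. No source names the scale of the deposited values, which were read as log2 from their range (2.634 to 14.7). They were used unchanged. Of 22810 probe sets, 64 are controls. Of the 22746 tested, 13513 name 1 gene in the platform annotation, 503 several and 8730 none, and 13508 were matched to a locus. Matching used the gene ID and, where that ID was retired, the locus tag, which gave 9 of the pseudogene loci and 2 members. Each locus was represented by its probe set with the highest mean.

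Groups were compared with limma 3.58.1 in R 4.3.3, with 1 mean per genotype over all 9 arrays, 6 residual degrees of freedom and two-sided moderated tests. Benjamini-Hochberg adjustment ran over all probe sets, and the scripts were tested on simulated data. Precision is limited by the number of arrays. Nothing in the labels says that replicates came from separate cultures, so p-values reflect only how far these samples spread, which may be a technical matter. The members and lists were chosen with earlier results of these data known. The text names the brightest members, the largest differences in each direction, the widest ranges, the loci beside the level limit, the brightest members of each gene type and the smallest p of each list. Adjacent pairs were named after their values were seen. Alternatives were a replicate block, each array left out, renewed quantile normalization, array weights, leaving out dim probe sets or the arrays numbered 1, other level limits and plain _at sets only. The limits of the _x_at medians were computed after seeing the data. A planned search of promoter sequence was not run, because no sequence was used here.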

Additional observations from a re-analysis of the deposited data

How the results depend on the processing

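The number of members depended on the level limit and on the probe sets admitted: it was 279 with a limit of 5, 76 with a limit of 7 and 107 with plain _at sets only. The count of members past the threshold between mutant and wild type was 0 to 1 with each array left out in turn, 1 with array weights (641 probe sets in all, 2.82%) and 1 with the replicate number as a block (607 in all, 2.67%), against 259 in all (1.14%) without either. With array weights the limma F test gave 2 members, AT1G64250 (adjusted p = 0.0344) and AT4G01490 (adjusted p = 0.0402), where 394 probe sets passed in all (1.73%) against 161 (0.708%) without weights. In the mutant against wild type the member that passed under the block was AT1G64250 (−0.47, adjusted p = 0.0453). The arrays that share a number are not known to be paired: their deviations from the genotype means correlated at 0.418 to 0.438 for number 1, at 0.0143 to 0.173 for number 2 and at 0.171 to 0.303 for number 3, and not every array correlated best with its own number. The block changed no other call of a member. The median difference of the members was −0.0313 to 0.149 for mutant minus wild type, −0.0962 to 0.0621 for 35S::JMJ24 minus wild type and −0.0122 to 0.121 for mutant minus 35S::JMJ24 with each array left out in turn. It was −0.128 for 35S::JMJ24 minus wild type when the dimmer 50% of probe sets were dropped, which kept 41 of the 172 members, 19 of them with _x_at sets. All 30 largest differences named kept their sign in 12 alternatives. This says little, because they were picked as the largest in these same data. A replicate block, or leaving out an array of the genotype outside a comparison, also cannot change its difference. Signals near 5.8 are close to the background, and with 3 arrays per genotype a median standard error of 0.148 limits what could be seen.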

Other observations

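Of the 74 coding genes measured beside a member, 1 passed the limma test between mutant and wild type, where 1.14% of all probe sets did. This was AT3G44510, with a mean signal of 6.81 and a mutant minus wild type difference of −0.72 (adjusted p = 0.0118). The member beside it, AT3G44500, differed by −0.11. None passed in the other comparisons.

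A pseudogene locus at or below 5.8 on average lay above it on all 3 arrays of 1 genotype in 2 cases. AT1G27285, which was left out by name, had 5.89, 6.03 and 6.34 in the jmj24 mutant. AT2G10070 had 5.82, 5.81 and 5.90 in 35S::JMJ24, with a mean of 5.79 over 9 arrays.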
